A study of Mus musculus with 9 samples.

Results

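The genes described here encode adrenomedullin, angiotensin and endothelin signalling components: the peptides Adm and Edn1, the receptors Calcrl, Agtr1a, Agtr2, Ednra and Ednrb, and the receptor activity modifying proteins Ramp1, Ramp2 and Ramp3. They were taken by name, as every probeset with that gene as its single annotated symbol. The set was put together because Adm and Agtr2 were high in control cells and low in both transfected lines, so those 2 differences from control chose the set and carry no test here. Of 10 listed genes, 9 had a probeset, out of 18193 genes with one on the array. They were read by 16 probesets, and 5 of the genes had 1 probeset only. For Ednra, no probeset had it as its single symbol, and the gene was not analysed here. A further 2 probesets annotated to both Ramp2 and a neighbouring gene were left out.

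RNA came from Balb/c-3T3 mouse fibroblasts stably transfected with pMvSrc (v-Src), from the same cells stably transfected with pRc/CMV-STAT3C (STAT3-C), and from unmodified Balb/c-3T3 cells that carried no transgene (control). v-Src is a viral tyrosine kinase that keeps endogenous STAT3 active, and STAT3-C is a constitutively active mutant of STAT3. All lines grew in DMEM with 10% bovine calf serum. Each line was sampled at 3 passages, 5 dishes were pooled at each, and each pool was hybridised to 1 Affymetrix Mouse Genome array, giving 3 arrays a line and 9 in all. Passages of a single line are not separate transfections, so every error and p-value below measures the spread between passages, and the sources used here do not say whether a line is 1 clone.

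Adrenomedullin is a secreted peptide that widens vessels and is made by many mesenchymal cells. Its receptor is Calcrl, a G protein-coupled receptor whose ligand is set by the partner it travels to the membrane with: Ramp1 makes a receptor for calcitonin gene-related peptide, while Ramp2 and Ramp3 make receptors for adrenomedullin. Angiotensin II acts mainly through the type 1 receptor (Agtr1a in mouse), which couples to Gq and calcium release, and the type 2 receptor Agtr2 is best known from fetal mesenchyme, where it is abundant. Endothelin-1 (Edn1) is a constrictor peptide read by the receptors Ednra and Ednrb.

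Levels are log2 values after Robust Multichip Average (RMA) normalization, and 1 unit is a doubling. The level of 1 probeset cannot be set against that of another, so each gene was compared only with itself across lines, and a gene with several probesets is described first by its leading one, which had the highest average of the 9 arrays. As a guide to background, the 95th percentile of the 44 probesets for olfactory receptors, which fibroblasts are not known to use, was 6.75 in v-Src cells, 6.58 in STAT3-C cells and 6.56 in control cells, and 43.2%, 45.7% and 45.1% of all probesets lay above it. The highest of the 44 averaged 8.63, 8.24 and 8.43 in the same order. The level is thus a rough guide across probesets, and a value above it does not show that a gene is expressed. Array medians ran from 6.27 to 6.39. Arrays of one line correlated at 0.990 to 0.995 over all probesets, arrays of the 2 transfected lines with each other at 0.971 to 0.977, and arrays of either transfected line with control arrays at 0.943 to 0.948. The leading Stat3 probeset averaged 10.70 in v-Src cells, 9.40 in STAT3-C cells and 9.17 in control cells, and a second one 10.25, 9.67 and 8.95. STAT3-C lay 0.24 above control on the leading Stat3 probeset (limma adjusted p = 0.291) and 0.72 above it on the second (limma adjusted p = 0.00827). The leading Src probeset averaged 8.33, 8.32 and 8.45 in the same order. The positions of these probes within the transgenes are not given in the sources used here, so they check little. Of 9 fibroblast markers, 7 lay above background in v-Src cells (not Pdgfrb and Thy1), 8 in STAT3-C cells (not Thy1) and 9 in control cells. Their mean level was 10.6 to 11.1 in v-Src arrays, 11.1 to 11.3 in STAT3-C arrays and 12.3 to 12.4 in control arrays. That of 7 smooth muscle and pericyte markers was 7.07 to 7.20, 6.98 to 7.02 and 7.61 to 8.17 in the same order. Of these 7, 4 lay above background in v-Src cells (not Tagln, Cnn1 and Myh11), 5 in STAT3-C cells (not Cnn1 and Myh11) and 5 in control cells (not Des and Myh11). Of 9 endothelial markers, Kdr alone was above background in each line, Pecam1, Cdh5, Tek and Tie1 were not, and the mean of the list was 5.44 to 5.58, 5.42 to 5.53 and 5.29 to 5.40. Of 6 macrophage and leukocyte markers, 2 lay above background in v-Src cells, 3 in STAT3-C cells and 3 in control cells, while Ptprc, Adgre1 and Itgam lay below it in every line. The mean of that list was 6.05 to 6.28 in v-Src arrays, 6.42 to 6.60 in STAT3-C arrays and 5.83 to 6.03 in control arrays. Of 6 epithelial markers, 2, 2 and 1 lay above background in the same order of lines, and the list averaged 6.41 to 6.55, 6.31 to 6.53 and 6.19 to 6.40. The part of the changes in these marker lists in the values below was not tested. In bulk RNA, fewer cells that make a transcript and less transcript in each cell cannot be told apart.

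Adm, the adrenomedullin gene, was far lower in both transfected lines than in control cells. Its leading probeset (1447839_x_at) read 6.30, 6.32 and 6.13 in the v-Src arrays, 6.24, 6.34 and 6.34 in the STAT3-C arrays, and 11.46, 11.68 and 11.35 in the control arrays. The second Adm probeset (1416077_at) read 5.22, 5.01 and 5.26 in v-Src cells, 4.87, 5.07 and 5.27 in STAT3-C cells, and 11.00, 11.22 and 10.87 in control cells. Every transfected array thus lay far under every control array on both probesets, and both transfected lines lay under the background level. The difference of v-Src from control was -5.24 (SE 0.11), or 37.9-fold lower, by the leading probeset and -5.87 (SE 0.12), or 58.3-fold lower, by the other. For STAT3-C it was -5.19 (SE 0.11), or 36.5-fold lower, and -5.96 (SE 0.14), or 62.3-fold lower. Because the transfected values were at background, the true fold may be larger than these. Counted from the lowest of 45037 probesets, the second Adm probeset held rank 14 in both comparisons, and the leading one rank 23 in v-Src and rank 25 in STAT3-C. Leaving out any 1 array kept the leading difference between -5.32 and -5.15 for v-Src and between -5.26 and -5.10 for STAT3-C.

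Agtr2, the type 2 angiotensin receptor, was the other gene the set was chosen on. Its probeset read 3.62, 3.70 and 3.78 in v-Src cells and 3.85, 3.61 and 3.69 in STAT3-C cells, against 7.62, 8.79 and 9.59 in control cells. The 6 transfected arrays lay within a narrow band well under background, and no control array came near it. The difference from control was -4.97 (SE 0.43), 31.2-fold lower, for v-Src and -4.95 (SE 0.41), 31.0-fold lower, for STAT3-C. As for Adm, the transfected values were under background, so these folds are of array signal and may understate the difference in transcript. What sets Agtr2 apart from Adm is the spread among the control passages themselves. Agtr2 had an SD of 0.99 over the 3 control arrays, against 0.17 for the leading Adm probeset and a median of 0.13 over all probesets. That SD stood at percentile 99.9 of all probesets. No spread can be read for Agtr2 in the transfected lines, where its signal was under background. The size of the Agtr2 difference therefore depended on which control passages were used: leaving out 1 array at a time moved it between -5.49 and -4.50 for v-Src and between -5.48 and -4.49 for STAT3-C.

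**Figure D1:**
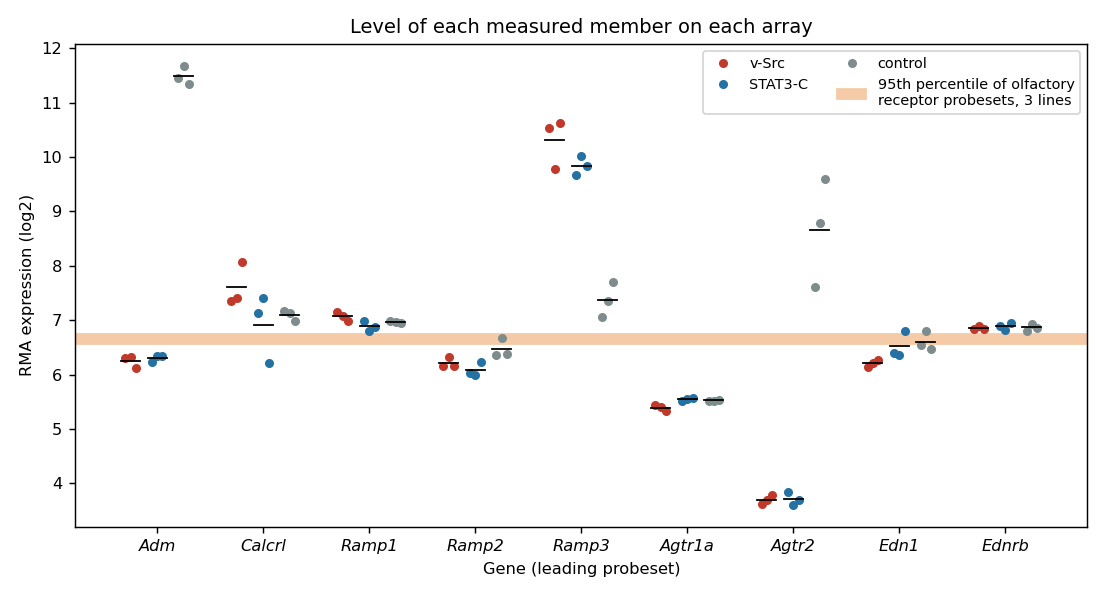
RMA expression (log2, vertical axis) of the leading probeset of each of the 9 measured genes; each point is 1 array (v-Src left, STAT3-C middle, control right), bars are means of 3 arrays, and the shaded band spans the background levels of the 3 lines. Adm and Agtr2 sit below the band in both transfected lines and above it in control cells, and Ramp3 is higher in both transfected lines, while Calcrl, Ramp1 and Ednrb have means above the band in each line, and Ramp2, Agtr1a and Edn1 lie near or under it.

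**Figure D2:**
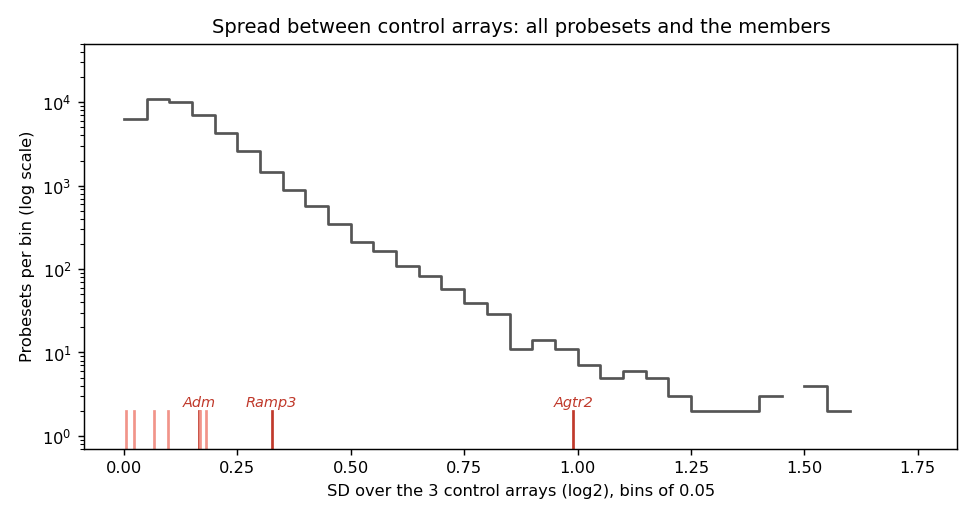
Distribution of the SD over the 3 control arrays (log2, horizontal axis, bins of 0.05) for all 45037 probesets (line, log scale on the vertical axis), with the leading probesets of the measured genes as ticks. Agtr2, at 0.99, lies in the far tail, while Ramp3 lies at 0.33 and Adm at 0.17.

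Ramp3, which turns Calcrl into an adrenomedullin receptor, ran the opposite way. It read 10.53, 9.78 and 10.62 in v-Src cells and 9.67, 10.01 and 9.84 in STAT3-C cells, against 7.05, 7.36 and 7.71 in control cells. All 6 transfected arrays lay above all control arrays, and the gene was above background in each line. Its control mean of 7.37 was still under the highest olfactory receptor probeset there, 8.43. The difference was 2.94 (SE 0.25), 7.66-fold higher, for v-Src and 2.47 (SE 0.17), 5.53-fold higher, for STAT3-C. Counted from the highest, Ramp3 held rank 146 of 45037 probesets for v-Src and rank 207 for STAT3-C.

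The promoters of these 3 genes are shown because they are the members whose lines stood furthest apart, 2 low and 1 high in both transfected lines. Each is the 250 bases before the annotated start from RefSeq (GRCm38.p6), which held a promoter for 8 of the 10 genes, not for Ramp2 and Agtr1a. Capitals mark every stretch in which TT and AA are parted by 4, 5 or 6 bases, a loose form of the STAT3 consensus, and overlapping matches run together. Adm lies at chr7:110627407-110627656 (+), Agtr2 at chrX:21484374-21484623 (+) and Ramp3 at chr11:6658283-6658532 (+).
Adm: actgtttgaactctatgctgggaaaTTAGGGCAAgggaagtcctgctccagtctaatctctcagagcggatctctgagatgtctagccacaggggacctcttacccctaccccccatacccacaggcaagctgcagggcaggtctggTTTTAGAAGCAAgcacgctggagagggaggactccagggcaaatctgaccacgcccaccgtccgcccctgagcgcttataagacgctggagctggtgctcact
Agtr2: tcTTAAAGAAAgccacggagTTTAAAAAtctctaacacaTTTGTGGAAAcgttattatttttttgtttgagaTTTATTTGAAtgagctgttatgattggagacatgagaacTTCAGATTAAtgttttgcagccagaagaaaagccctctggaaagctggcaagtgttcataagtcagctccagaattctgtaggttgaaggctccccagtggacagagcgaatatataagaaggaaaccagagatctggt
Ramp3: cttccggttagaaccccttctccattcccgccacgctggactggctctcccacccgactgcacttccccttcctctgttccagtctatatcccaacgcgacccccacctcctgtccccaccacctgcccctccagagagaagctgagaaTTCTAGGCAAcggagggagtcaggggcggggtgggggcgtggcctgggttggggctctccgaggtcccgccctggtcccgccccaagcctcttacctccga

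The Adm promoter held 3 matches to the loose consensus, the Agtr2 promoter 10, many of them overlapping, and the Ramp3 promoter 1. Such matches are common: 57.7%, 55.2% and 54.5% of 32851 promoters of the same length held the shortest, middle and longest spacing, 75.6% held at least 1 of them, and so did each of the 8 promoters found here. These 3 spacings were added after the other values were known. The 8 promoters differed in base composition, with a GC content of 56.8% for Adm, 38.4% for Agtr2 and 65.2% for Ramp3, against a median of 52.4%. Stricter STAT motifs were searched on both strands as well. TTC and GAA parted by 3 bases, held by 7.02% of promoters, was in none of the 8. With 4 bases between them, held by 5.85% and itself a case of the longest spacing above, the pair was in the promoters of Edn1 (bases -185 to -176 from the start) and Ednra (-120 to -111) and in none of the 3 shown. ACGTG, the core of the hypoxia response element (16.6%), TGANTCA, an AP-1 site (6.75%), and TATAAA (12.4%) were not found in any of the 8. These are matches of letters in a short window and do not show binding.

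Calcrl, the receptor that Ramp3 serves, passed the test between the 2 transfected lines (below) on its second probeset only, whose means lay under background. Its leading probeset (1425814_a_at) read 7.35, 7.41 and 8.08 in v-Src cells, 7.13, 7.41 and 6.21 in STAT3-C cells, and 7.17, 7.14 and 6.99 in control cells. On it the v-Src and STAT3-C arrays overlapped, and the SD within STAT3-C (0.63) was larger than the difference from control of -0.18 (SE 0.27). That of v-Src from control was 0.51 (SE 0.19). The second Calcrl probeset (1418489_a_at) read 6.43, 6.51 and 6.90 in v-Src cells, 5.70, 5.53 and 5.67 in STAT3-C cells, and 5.84, 6.08 and 5.92 in control cells. Here the 3 lines did not overlap, v-Src lying highest and STAT3-C lowest, but all 3 line means were under the background level. Its difference from control was 0.67 (SE 0.14), 1.59-fold higher, for v-Src and -0.31 (SE 0.10) for STAT3-C. The third probeset (1459536_at) lay at 5.03 to 5.24 in v-Src cells, 4.64 to 4.84 in STAT3-C cells and 5.07 to 5.24 in control cells.

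The comparison of v-Src with STAT3-C did not itself choose the genes, although Adm and Agtr2 were chosen as low in both lines. It was tested with limma across all 45037 probesets, with p-values adjusted by the Benjamini-Hochberg method. A probeset was called where that p was below 0.05 and the lines differed 1.5-fold or more. Of the 16 probesets, 1 was called higher in v-Src and 0 lower, while 4.99% of all probesets were called higher and 5.33% lower, so the count is near that of the array at large. Without adjustment, 5 of the 16 had a p under 0.05, as did 33.9% of all probesets. The called probeset was Calcrl 1418489_a_at, with a v-Src minus STAT3-C difference of 0.98 (SE 0.13, 95% interval 0.67 to 1.29, 1.97-fold, limma adjusted p = 0.00291). The third Calcrl probeset differed by 0.43 (SE 0.09, limma adjusted p = 0.0168), under the fold required, and the leading one by 0.70 (SE 0.32, 95% interval -0.06 to 1.46, limma adjusted p = 0.18). All 3 probesets thus had a higher mean in v-Src, and the only one above background did not pass.

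For the 3 genes furthest from control, the direct differences were small beside those from control. The leading Adm probeset differed by -0.05 (95% interval -0.25 to 0.14) and Agtr2 by -0.01 (95% interval -0.23 to 0.20). Both genes were chosen as low in both lines, so these small differences were largely set by that choice and carry no test. With both lines at background, these intervals bound the array signal rather than the transcript. Ramp3 differed by 0.47 (SE 0.22, 95% interval -0.04 to 0.98, limma adjusted p = 0.18), which leaves room for a difference of up to nearly a doubling. That result turned on v-Src array 5, the lowest of its line: without it Ramp3 was higher in v-Src by 0.73 (SE 0.12, limma adjusted p = 0.011) and passed.

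**Figure D3:**
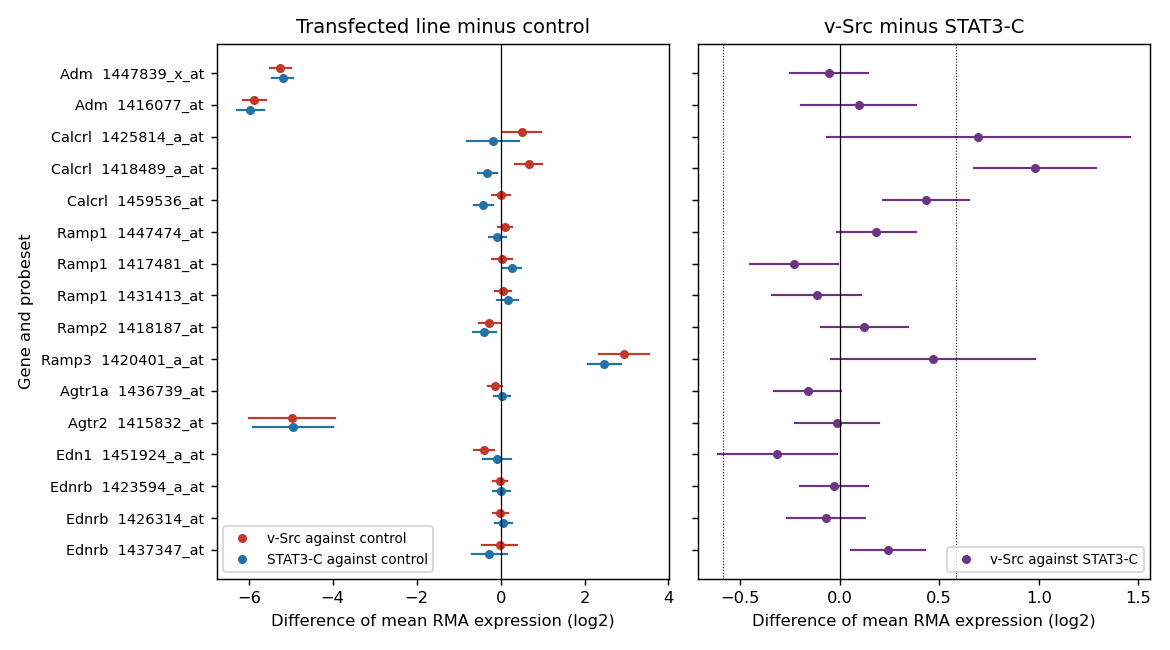
Differences of mean RMA expression (log2, horizontal axes) with 95% intervals of limma for the 16 probesets, transfected line minus control on the left and v-Src minus STAT3-C on the right, where dotted lines mark a 1.5-fold difference. On the left Adm, Agtr2 and Ramp3 differ most in both lines, but Adm and Agtr2 chose the set, so the left intervals carry no test. On the right Calcrl 1418489_a_at, at 0.98, alone lies past the dotted line with its whole interval.

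The other members varied little. Ramp2, the other partner that makes Calcrl an adrenomedullin receptor, read 6.16, 6.32 and 6.15 in v-Src cells, 6.03, 5.99 and 6.23 in STAT3-C cells, and 6.36, 6.68 and 6.39 in control cells. Both transfected lines lay just under the control arrays, by -0.27 (SE 0.11) for v-Src and -0.39 (SE 0.12) for STAT3-C, with every line mean under background. v-Src and STAT3-C overlapped in Ramp2 and differed by 0.12 (95% interval -0.10 to 0.35, limma adjusted p = 0.4). Edn1 read 6.14, 6.22 and 6.28 in v-Src cells, 6.40, 6.37 and 6.81 in STAT3-C cells, and 6.54, 6.80 and 6.48 in control cells. Its v-Src arrays lay under all others, at -0.39 (SE 0.10) from control, while STAT3-C overlapped control at -0.08 (SE 0.14). The direct difference of Edn1 was -0.31 (95% interval -0.61 to -0.01, limma adjusted p = 0.131) and did not pass.

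Ramp1, the partner for the calcitonin gene-related peptide receptor, ranged from 6.81 to 7.16 over all 9 arrays by its leading probeset, with line means of 7.08 in v-Src cells, 6.89 in STAT3-C cells and 6.97 in control cells. The endothelin receptor Ednrb ranged from 6.81 to 6.94, with means of 6.86, 6.89 and 6.87 in the same order. By these leading probesets both genes lay just above background in each line. The Ednrb ranges of the lines overlapped, while the Ramp1 arrays of v-Src lay just above those of STAT3-C, and each overlapped control. The other probesets of both genes had means under background in every line, and none was called between the transfected lines. Arrays of v-Src and STAT3-C did not overlap on Ramp1 1417481_at (v-Src minus STAT3-C -0.23, limma adjusted p = 0.137) or Ednrb 1437347_at (0.24, limma adjusted p = 0.0728). Agtr1a, the main angiotensin II receptor, stayed under background at 5.33 to 5.44 in v-Src cells, 5.52 to 5.58 in STAT3-C cells and 5.52 to 5.53 in control cells, its v-Src arrays lying just under the others. On the leading probesets, the direct differences of these genes were 0.18 for Ramp1 (limma adjusted p = 0.178), -0.03 for Ednrb (limma adjusted p = 0.822) and -0.16 for Agtr1a (limma adjusted p = 0.166).

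Counted by probeset, 2 of the 16 were at least 1.5-fold higher in v-Src than in control with arrays that did not overlap (Ramp3 and Calcrl 1418489_a_at), 3 were lower (both Adm probesets and Agtr2) and 11 were neither. By the same rule 8.90% of all probesets were higher and 8.28% lower. In STAT3-C 1 probeset was higher (Ramp3), the same 3 were lower and 12 were neither, against 9.73% and 8.63% of all probesets. Since these contrasts share their control arrays and chose the genes, nothing is read from the counts. The median difference over the 16 probesets was -0.01 for v-Src and -0.13 for STAT3-C, against 0.03 and 0.02 over all probesets. By the leading probeset, 7 of the 9 genes lay above background in control cells (Adm, Calcrl, Ramp1, Ramp3, Agtr2, Edn1 and Ednrb), and 4 did in each transfected line (Calcrl, Ramp1, Ramp3 and Ednrb). Counted by probeset, 8 of the 16 did in control cells and 4 in each transfected line. The shares of all probesets were 45.1% in control, 43.2% in v-Src and 45.7% in STAT3-C cells. Adm and Agtr2 chose the set, and Edn1 in control cells lay at 6.61, just over the 6.56 cut-off, so nothing is read from these counts either.

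The genes whose level followed Adm most closely over the 9 arrays, by Pearson correlation with the leading probeset, were Thbs2, Celf2, Ptn, Ndn and Cnp, each with a correlation of 0.998 or above. Thbs2, which encodes a matricellular protein, averaged 6.24 in v-Src cells, 6.35 in STAT3-C cells and 10.97 in control cells. Ptn, which encodes the growth factor pleiotrophin, averaged 3.51, 3.57 and 10.87 in the same order, and Ndn, which encodes necdin, 4.62, 4.72 and 10.94. Those closest to Agtr2 were Ddx54 and Tent5a at 0.994, Cfap161 at 0.994, and Irgm2 and Mark1 at 0.993. Irgm2, which encodes an interferon-inducible GTPase, averaged 6.86 in v-Src cells, 6.97 in STAT3-C cells and 10.23 in control cells. The 9 arrays are 3 passages of each of 3 lines, so such a correlation mainly records the step between control and transfected arrays and is given as a description.

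The rest of the pathway was followed in 64 further genes in 6 lists, of which 57 had a probeset, each read by its leading probeset and tested in all 3 comparisons. In v-Src against control, 8 were higher, 8 lower and 41 did not pass. The corresponding shares over all 18193 genes were 9.54% higher and 10.4% lower. In STAT3-C against control, 11 were higher, 9 lower and 37 did not pass, where 11.9% and 10.3% of all genes were called. In v-Src against STAT3-C, 5 were higher and 8 lower, with 4.84% and 6.83% over all genes. The median difference of the 57 was 0.06, 0.06 and -0.06 in these comparisons, against 0.02, 0.04 and -0.03 over all genes.

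Of 10 other peptide and peptide processing genes, 2 rose and 1 fell in v-Src, 4 rose in STAT3-C, and in the direct comparison 4 were lower in v-Src. Calcb, which encodes beta calcitonin gene-related peptide, a ligand of Calcrl with Ramp1, averaged 5.31 ± 0.39 in v-Src cells, 7.05 ± 0.37 in STAT3-C cells and 4.28 ± 0.13 in control cells (SD, n = 3 each). It rose by 1.03 in v-Src (SE 0.19, limma adjusted p = 0.00615) and by 2.77 in STAT3-C (SE 0.18, limma adjusted p = 2.53e-05), and v-Src lay -1.74 from STAT3-C (limma adjusted p = 0.00304). Calcb was above background in STAT3-C cells alone. The other 2 endothelin genes, read by the leading probeset, had their highest mean in STAT3-C as well. Edn2 averaged 5.20 in v-Src cells, 6.41 in STAT3-C cells and 5.46 in control cells, and Edn3 6.26, 6.99 and 6.12. Edn2 rose by 0.95 in STAT3-C (SE 0.10, limma adjusted p = 0.000282) and was -1.21 in v-Src relative to STAT3-C (limma adjusted p = 0.000492), although its mean stayed under background in each line. Edn3 rose by 0.87 in STAT3-C (limma adjusted p = 0.00391), from a control mean under background, and was -0.74 in v-Src relative to STAT3-C (limma adjusted p = 0.00786), and the other 3 Edn3 probesets did not pass. Cpe, a carboxypeptidase that trims peptide precursors, rose by 0.89 in v-Src (limma adjusted p = 0.000411) and by 0.63 in STAT3-C (limma adjusted p = 0.00916). The STAT3-C call for Cpe was lost without STAT3-C array 1 (0.57) or 2 (0.53), and also when the values were quantile normalized again (0.51) or centred on each array’s median (0.58), and a second Cpe probeset passed in neither line. Named after their values were seen, the remaining calls were Adm2, a further Calcrl ligand, which fell by 0.64 in v-Src, and Ece2, an endothelin-converting enzyme, at -0.60 in v-Src relative to STAT3-C. Adm2 no longer passed in v-Src without v-Src array 6 or control array 2, while its STAT3-C difference of -0.53 passed without control array 3 or STAT3-C array 3. The Ece2 call was lost without v-Src array 1 or STAT3-C array 3, and the other Ece2 probeset did not pass (-0.02, limma adjusted p = 0.942).

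Of 8 genes for peptide breakdown and angiotensin conversion, among them Ace, 1 passed. Prcp, a carboxypeptidase that cleaves angiotensin II, averaged 7.03 in v-Src cells, 7.75 in STAT3-C cells and 6.79 in control cells, and rose by 0.96 in STAT3-C (limma adjusted p = 0.00106), with v-Src at -0.72 from STAT3-C (limma adjusted p = 0.00437). The other 3 Prcp probesets did not pass. Of 10 other receptors and partners, among them Agtr1b, Mas1 and Calcr, 1 passed. Ackr3, a decoy receptor that binds chemokines and also takes up adrenomedullin, averaged 9.57 ± 0.46 in v-Src cells, 11.35 ± 0.14 in STAT3-C cells and 9.40 ± 0.25 in control cells. It rose by 1.95 in STAT3-C (SE 0.14, limma adjusted p = 4.15e-05), while v-Src lay 0.17 from control (limma adjusted p = 0.641) and -1.78 from STAT3-C (limma adjusted p = 0.00201).

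Of 12 G protein and second messenger genes, 1 rose and 3 fell in each transfected line. Gnaq and Gna11, alpha subunits that carry the calcium signal of Gq-coupled receptors such as Agtr1a, both fell: Gnaq averaged 7.89 in v-Src cells, 7.85 in STAT3-C cells and 9.21 in control cells, and Gna11 9.50, 9.81 and 10.84. The difference from control was -1.32 (SE 0.09, limma adjusted p = 8.14e-05) and -1.36 (SE 0.11, limma adjusted p = 6.23e-05) for Gnaq in v-Src and STAT3-C, and -1.34 and -1.03 for Gna11. In Gnaq 5 of 7 probesets passed in both lines, and in Gna11 both did. Itpr2, an inositol trisphosphate receptor of the calcium store, fell by 0.87 in v-Src (limma adjusted p = 0.00182) and by 1.44 in STAT3-C (limma adjusted p = 5.12e-05), with 3 of its 6 probesets passing. The direct Itpr2 difference of 0.58 was just under the fold required and passed without v-Src array 5 (0.70) or STAT3-C array 2 (0.67). Its relative Itpr3 rose by 1.17 in v-Src (SE 0.13, limma adjusted p = 0.000671) and in v-Src exceeded STAT3-C by 0.71 (limma adjusted p = 0.00894). The gene that rose in STAT3-C was Plcb4, a phospholipase C, named after its values were seen, by 0.96 on 1 of its 5 probesets. It was -0.75 in v-Src relative to STAT3-C, a call lost without v-Src array 1 or STAT3-C array 1.

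**Figure D4:**
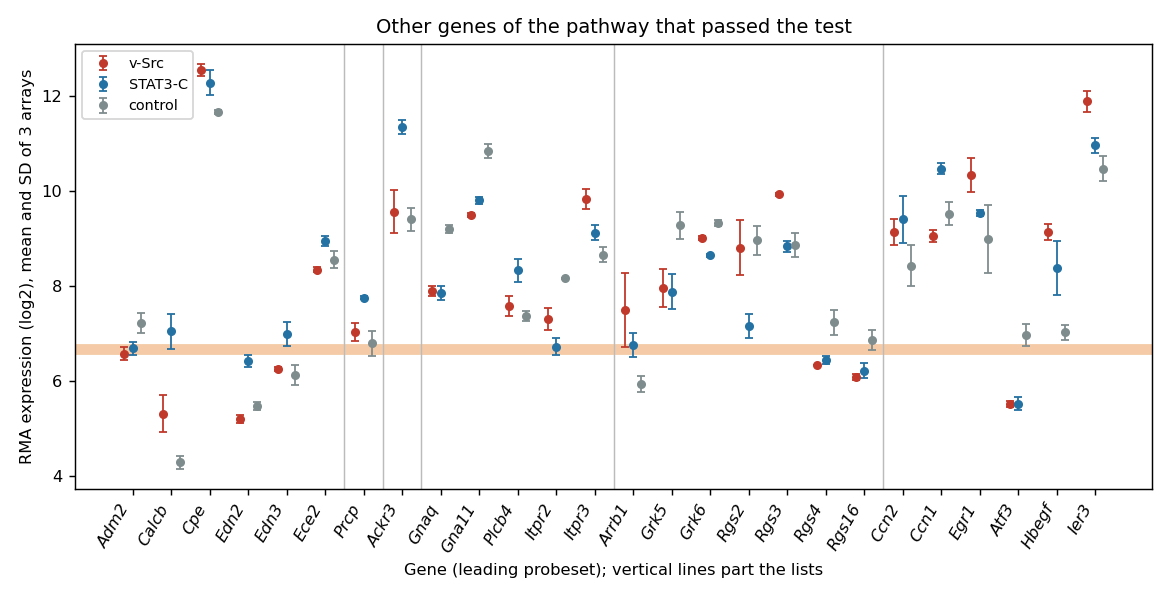
RMA expression (log2, vertical axis; mean with SD of 3 arrays) of the other pathway genes that passed the test in at least 1 comparison, in the order v-Src, STAT3-C and control, with vertical lines between lists and the background band shaded. Calcb, Ackr3 and Ccn1 have their highest mean in STAT3-C cells, Gnaq, Gna11, Grk5 and Atf3 are lower in both transfected lines than in control cells, and Rgs2 is lower in STAT3-C cells than in the other lines.

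Of 9 genes for receptor desensitisation and RGS proteins, which end G protein signals, 2 rose and 3 fell in v-Src, and 1 rose and 5 fell in STAT3-C. Rgs2, which acts on Gq, averaged 8.81 ± 0.59 in v-Src cells, 7.16 ± 0.26 in STAT3-C cells and 8.97 ± 0.30 in control cells. It fell by 1.81 in STAT3-C (SE 0.18, limma adjusted p = 0.0002) and v-Src exceeded STAT3-C by 1.66 (SE 0.28, limma adjusted p = 0.00685), on 3 of its 4 probesets, while v-Src lay -0.15 from control (limma adjusted p = 0.736). Rgs3 averaged 9.93 in v-Src cells, 8.84 in STAT3-C cells and 8.87 in control cells, rising by 1.06 in v-Src (limma adjusted p = 0.000953) and lying 1.09 above STAT3-C (limma adjusted p = 0.000498), on 2 of its 4 probesets. Grk5, a receptor kinase, fell by 1.33 in v-Src (limma adjusted p = 0.00409) and by 1.40 in STAT3-C (limma adjusted p = 0.00148). Arrb1, a beta-arrestin, rose by 1.56 in v-Src (SE 0.35, limma adjusted p = 0.0145) and by 0.82 in STAT3-C (SE 0.15, limma adjusted p = 0.00429). The control mean of Arrb1, 5.93, lay under background, so these are differences of array signal. The v-Src call for Arrb1 was lost without v-Src array 1 (1.29) or 6 (1.39) or control array 1 (1.49) or 3 (1.54), each with an adjusted p between 0.0504 and 0.0568. Its STAT3-C call was lost when all 9 arrays were fitted together (adjusted p = 0.0706), and its direct difference of 0.74 (limma adjusted p = 0.19) passed without v-Src array 5, at 1.18. The remaining calls, named after their values were seen, were Rgs4 and Rgs16, lower in both lines with means there under background, and Grk6, lower in STAT3-C. The other Grk6 probesets did not pass in STAT3-C, at -0.13 and -0.14. Rgs16 no longer passed in STAT3-C without control array 2.

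Of 8 genes of the immediate response to Gq and RhoA signals, 3 rose and 1 fell in v-Src, and 3 rose and 1 fell in STAT3-C. Hbegf, a growth factor released by receptor signalling, averaged 9.14 ± 0.17 in v-Src cells, 8.38 ± 0.57 in STAT3-C cells and 7.02 ± 0.16 in control cells. It rose by 2.12 in v-Src (SE 0.12, limma adjusted p = 4.1e-05) and by 1.36 in STAT3-C (SE 0.25, limma adjusted p = 0.00451) on both of its probesets. The direct difference of 0.76 missed the threshold (limma adjusted p = 0.0827) but passed without STAT3-C array 3, at 1.07 (limma adjusted p = 0.00637). Ccn1, a matricellular protein, averaged 9.06 in v-Src cells, 10.47 in STAT3-C cells and 9.52 in control cells, rose by 0.95 in STAT3-C (limma adjusted p = 0.00131) and lay at -1.42 in v-Src relative to STAT3-C (SE 0.10, limma adjusted p = 0.000376). Its v-Src difference from control of -0.47 was under the fold required and passed without control array 3, at -0.59. Of the other 3 Ccn1 probesets, 1 passed in all 3 comparisons, at -0.75 in v-Src and 0.97 in STAT3-C against control, 1 passed in the direct comparison only and 1 in none. Ier3 rose by 1.42 in v-Src (limma adjusted p = 0.000832) and v-Src exceeded STAT3-C by 0.92 (limma adjusted p = 0.00407), while its STAT3-C difference from control of 0.50 was under the fold required and passed without control array 2, at 0.61. Atf3, a stress-induced transcription factor, fell by 1.45 in v-Src (limma adjusted p = 0.000239) and by 1.45 in STAT3-C (limma adjusted p = 0.000165), to means of 5.51 and 5.52, both under background, against 6.97 in control cells. The remaining calls, named after their values were seen, were Egr1, higher by 1.35 in v-Src than in control, and Ccn2, higher by 0.98 in STAT3-C. Egr1 was also 0.81 above STAT3-C in v-Src, a call lost without STAT3-C array 1 and when all 9 arrays were fitted together (adjusted p = 0.0887). The Egr1 call against control was lost without v-Src array 5 or 6, and that of Ccn2 without control array 1 or 3 or STAT3-C array 1 or 3. In v-Src the Ccn2 difference from control was 0.71 (limma adjusted p = 0.0579), and it passed without control array 2, at 0.90.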

How the data were processed

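Total RNA was measured on 9 arrays. The authors normalized the arrays with RMA and deposited log2 expression values, 1 column an array. Their methods normalized the control arrays separately with each transfected line, whereas the deposited table holds 1 set of control columns. Should the 2 transfected lines have been normalized in separate runs, run and line cannot be told apart in their direct comparison. Of 45101 probesets, 64 array controls were left out. Of the remaining 45037, 34945 had 1 gene symbol in the platform annotation, 932 several and 9160 none, and 2 listed genes were matched by their current symbols (Ccn1 and Ccn2). Each comparison was fitted on its 6 arrays with limma 3.58.1 (lmFit, eBayes) in R 4.3.3 and tested on simulated data first. Exact permutation of 3 and 3 arrays gives no p below 0.1 and was not used. Arrays show no depth: their number, 3 a line, limits the precision. Genes named were all probesets of the members, up to 4 called genes with the largest difference in each pathway list, 5 correlates each of Adm and Agtr2, and Stat3 and Src. The members and lists were chosen with earlier results of these data known. Alternatives were another normalization, thresholds, filter, model and probeset rule, an SAM-type statistic, the replicate number as a block and leaving out each array.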

Additional observations from a re-analysis of the deposited data

Results flagged for a closer look

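One result stood out because the 2 transfected lines lay on opposite sides of control. On Calcrl 1418489_a_at every v-Src array lay above every control array and every STAT3-C array lay below them, and the v-Src minus STAT3-C difference was 0.98 (SE 0.13, limma adjusted p = 0.00291). It passed the test in 13 of 14 alternatives that kept the probeset, with an adjusted p (for the SAM-type statistic, a q) of 0.000628 to 0.0178 and a difference of 0.84 to 1.07. The exception was a required fold of 2. Settings that changed only the fold or p threshold reused the main fit, so they are not separate evidence. The median level filter and the averaging of probesets did not keep this probeset. The STAT3-C shift from control was small, -0.31, and the other 2 Calcrl probesets did not show opposite movement: on the third, v-Src lay 0.02 from control, and on the leading one STAT3-C overlapped control. The line means lay under the olfactory receptor background in each line, and the part of background signal in the difference was not tested.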

How the results depend on the processing

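No called difference, and no member difference past 1.5-fold from control, changed sign under any alternative run. Requiring a fold of 2 left 1 member probeset higher in v-Src than in control in place of 2, 0 in place of 1 called higher against STAT3-C, 4 in place of 8 pathway genes lower in v-Src, 3 in place of 11 higher in STAT3-C, and 2 higher and 4 lower in v-Src against STAT3-C in place of 5 and 8. With no fold threshold, 13 pathway genes were lower in v-Src and 14 lower in STAT3-C than in control, and in v-Src against STAT3-C 11 were higher, as were 2 member probesets. Keeping only probesets above the median level left 1 member probeset higher in v-Src against control and 0 against STAT3-C. Averaging the probesets of each gene gave 7 pathway genes higher in STAT3-C than in control and 4 lower in v-Src against STAT3-C.

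Leaving out each array in turn gave 1 to 3 member probesets higher and 3 to 3 lower in v-Src, 1 to 1 and 3 to 3 in STAT3-C, and 1 to 2 called higher and 0 to 0 lower against STAT3-C (2 without v-Src array 5, which adds Ramp3; 1 higher against control without v-Src array 6). Pathway counts ran 6 to 9 higher and 7 to 9 lower in v-Src, 10 to 14 and 9 to 11 in STAT3-C, and 4 to 7 and 6 to 8 against STAT3-C. With the replicate number as a block, STAT3-C against control gave 11 pathway genes higher and 9 lower. Same-numbered arrays of these lines correlated at -0.09, 0.06 and 0.04 in their deviations. That gave no sign that the numbers pair the arrays, but with 3 arrays a line it cannot exclude pairing.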
